A study of Homo sapiens with 4 samples.

Results

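Actin, thymosin and cortical cytoskeleton genes of HT-29 cells were compared between APC shRNA and control: 10 genes, chosen by name for their roles and not by a threshold on any value. These members and the gene lists below were chosen with earlier results of these data known, so their shares against all genes only describe them. All 10 were found among the 19729 genes in the files. They are the cytoplasmic actins ACTB and ACTG1, the actin monomer binding proteins TMSB4X, TMSB10 and PFN1, the filament severing protein CFL1, the membrane linker EZR, the microvillus bundling protein VIL1 and the crosslinkers ACTN1 and ACTN4. HT-29 is a microsatellite-stable human colorectal cancer line with a BRAF-V600E mutation and truncated APC. Cells were stably transduced with a lentivirus from which doxycycline (DOX) induces a short hairpin RNA (shRNA) against APC, or a non-silencing shRNA (NonS) as control, and all cells in both conditions received 500 ng/ml DOX for 72 h. The experiment was done in duplicate, I and II, and mRNA was sequenced from cells 3-5 passages after transduction (4 libraries, 2 for either shRNA). The p-values below measure the spread between these duplicates. Each condition rests on transduced cells with a single hairpin, so APC silencing cannot be told apart from other differences between these cell populations.

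Actin cycles between monomers and filaments. Thymosin beta proteins hold monomers in reserve, profilin hands them to growing filament ends, and cofilin severs old filaments. In intestinal epithelium, villin bundles the filaments inside microvilli, ezrin ties them to the apical membrane and alpha-actinins crosslink filaments near junctions and adhesions. APC is a scaffold for beta-catenin degradation and is itself known to contact the cytoskeleton, and actin genes are known targets of the serum response factor SRF and its actin-sensing cofactors, the MRTF proteins.

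The deposited values are whole numbers that vary less between replicates than read counts would, so they were read as scaled scores. Their scale is not stated and the read depth behind them is unknown. They summed to 398338 in NonS I and to between 411112 and 413595 in the other libraries. APC itself was listed at 3 in NonS I and at 0 in the other libraries, too low to check the silencing. All 9 epithelial markers were above 0 in at least 1 library, with KRT8 at 1202 to 1534 and EPCAM at 183 to 224, although CDX1 stood at 2 under NonS and 0 under APC shRNA, and CDX2 at 0 under NonS and 2 and 4 under APC shRNA. All 9 fibroblast markers were at 0 in every library, and the 7 smooth muscle markers summed to between 4 and 6. Of 8 blood cell markers, 5 were at 0 in every library, CD14 and HBB did not exceed 4, and LYZ, which some intestinal epithelial cells also make, lay between 614 and 906.

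Promoter sequence is shown for the 4 members on which the comparisons below turn: the actin with the larger difference, both thymosins and ezrin. RefSeq promoters were found for 8 of the 10 genes, without ACTB and VIL1. Each run is the 120 bases before the RefSeq start site, on the strand of the gene, in build GRCh38.p14. Capitals mark a CArG box, the element bound by SRF, or a TATA box, searched as TATAAA or TATATA on both strands.
ACTG1, chr17:81512800-81512919, minus strand: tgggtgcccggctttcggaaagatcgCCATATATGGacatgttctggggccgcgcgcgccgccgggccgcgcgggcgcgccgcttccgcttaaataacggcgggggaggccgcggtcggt
TMSB10, chr2:84905536-84905655, plus strand: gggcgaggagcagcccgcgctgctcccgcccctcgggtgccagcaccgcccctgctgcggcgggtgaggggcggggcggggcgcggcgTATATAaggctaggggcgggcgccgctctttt
TMSB4X, chrX:12974990-12975109, plus strand: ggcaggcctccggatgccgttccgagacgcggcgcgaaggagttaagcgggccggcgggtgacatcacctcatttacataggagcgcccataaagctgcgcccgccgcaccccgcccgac
EZR, chr6:158818236-158818355, minus strand: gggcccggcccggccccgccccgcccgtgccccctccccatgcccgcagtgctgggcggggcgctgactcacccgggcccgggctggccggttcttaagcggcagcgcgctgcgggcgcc
The ACTG1 window held a CArG box that started 94 bases before the start site. Over 250 upstream bases, 312 of 27305 promoters held one (1.14%), and ACTG1 was the only 1 of the 8 members to do so in its first-listed promoter. TMSB10 held a TATA box 32 bases upstream, as did 13.3% of promoters. The letters of a TCF/LEF core, CTTTGA on either strand, stood in none of the first-listed promoters of the 8 members, against 11.4% of all promoters. Later-listed promoters of ACTN1 held a CArG box in 1 entry and a TCF/LEF core in another, and the second of ACTN4 held a TCF/LEF core. These matches describe letters in a window and say nothing of binding.

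**Figure D1:**
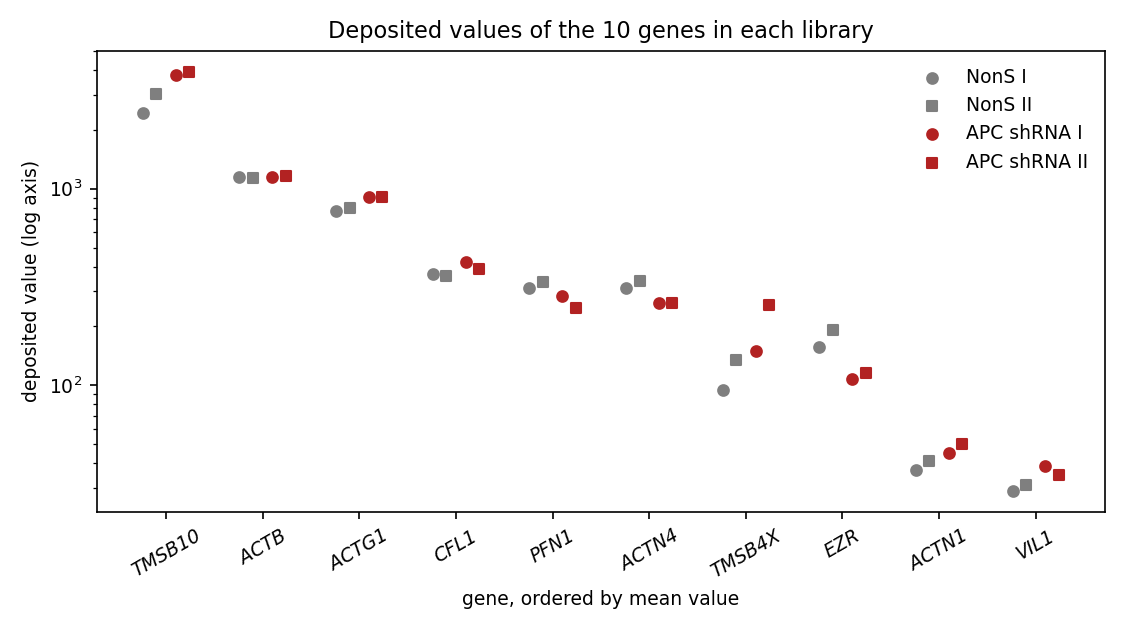
Deposited value (log axis) of each gene in NonS libraries (grey) and APC shRNA libraries (red), replicate I as circles and II as squares, ordered by mean value. TMSB10 lies highest, with 2427 to 3939, and VIL1 lowest, with 29 to 39.

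TMSB10 had the highest mean value of the 10 genes and ranked 8 among all 19729 genes. ACTB ranked 41 and ACTG1 54. CFL1, PFN1 and ACTN4 followed at ranks 115, 156 and 158, TMSB4X and EZR at 291 and 339, and ACTN1 and VIL1 at 1375 and 1830. The libraries of PFN1 and ACTN4 overlapped in value, as did those of TMSB4X and EZR and those of ACTN1 and VIL1. Within a library, the order of PFN1 and ACTN4 was not constant. TMSB4X lay below EZR in both NonS libraries and above it in both APC shRNA libraries. ACTN1 lay above VIL1 in every library. Whether the deposited values are already divided by transcript length is not given in the sources used here. Multiplied by the longest GENCODE v29 transcript length in kb, they summed to between 980841 and 984873 per library. In proportion this range was narrower than that of the plain totals, as values already divided by length would give. Differences in level between genes carry what doubt remains. Dividing by that length, which may then be a second division, exchanged CFL1 with PFN1 and ACTN4 with TMSB4X. It left the other 6 ranks in place. Together the members held 1.42% and 1.56% of the summed values in the NonS duplicates, against 1.73% and 1.78% in those with APC shRNA. Without TMSB10 these shares were 0.811%, 0.817%, 0.813% and 0.828%, so most of the difference in the sum lay in this gene.

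Log2(value + 1) was compared between conditions with limma across 5376 genes that averaged 10 or more over the 4 libraries, a filter that all 10 members passed, with Benjamini-Hochberg adjustment. A gene was called at an adjusted p under 0.05. None of the 10 members was called (0 of 10), against 432 genes or 8.04% of all genes tested (4.33% higher and 3.7% lower in APC shRNA libraries). At an unadjusted p under 0.05 the members numbered 5 of 10, against 35.6% of all genes. A stricter rule, more than 4-fold at an adjusted p below 0.01, was met by 0% of the genes tested. Both APC shRNA values exceeded both NonS values in 6 members, against 33% of all genes, and both were below in 3 members, against 27.5%. The exception was ACTB, whose groups overlapped. The median log2 difference of the members was 0.18, with a range from -0.63 to 0.79, and the median over all genes tested was 0.027. With 2 libraries against 2, an exact permutation test of 1 gene cannot give a two-sided p under 0.333.

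ACTB (ENSG00000075624), which encodes beta-actin and often serves as a reference gene and loading control, lies on chromosome 7 of GRCh38 from 5527147 to 5563784. Its values were 1153 (NonS I), 1129 (NonS II), 1150 (APC shRNA I) and 1156 (APC shRNA II). The 4 libraries thus lay within a narrow band and the conditions overlapped. Its mean was 1141 ± 17.0 (SD, n = 2) for NonS and 1153 ± 4.24 (SD, n = 2) for APC shRNA, a log2 difference of 0.015 with a 95% interval from -0.15 to 0.18 (adjusted p = 0.854, limma). Only 3.85% of the genes tested had a smaller difference in size. The sign of a value so near 0 changed with the scaling.

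For other common reference genes the conditions did not overlap. PPIA, a cyclophilin gene, served together with B2M to normalise qRT-PCR in the study. It read 763 and 813 under NonS shRNA, against 615 and 613 under APC shRNA. GAPDH read 1632, 2055, 1348 and 1370 in the same order. Neither was called (adjusted p = 0.0683 and 0.146, limma). The ratio of ACTB to PPIA was 1.51 and 1.39 in NonS and 1.87 and 1.89 in APC shRNA libraries, a log2 difference of 0.37 (exact permutation p = 0.333).

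ACTG1 (ENSG00000184009), the gene of gamma-actin on chromosome 17 from 81509971 to 81523847, read 769 and 797 under NonS shRNA, against 904 in each APC shRNA replicate. The conditions did not overlap, and the APC shRNA replicates had equal values. The log2 difference was 0.21 (standard error 0.056, 95% interval 0.033 to 0.38, adjusted p = 0.111, limma), and with GC content correction it was 0.12 (adjusted p = 0.402). The ratio of ACTG1 to ACTB within a library does not depend on scaling between libraries. It was 0.667 and 0.706 under NonS and 0.786 and 0.782 under APC shRNA, a log2 difference of 0.19 (exact permutation p = 0.333, two-sided, the smallest possible).

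Actin genes have many processed copies, and reads of 50 bp cannot always be assigned. Of the 50-base windows of the longest annotated transcript, 7.01% in ACTB and 3.58% in ACTG1 occurred exactly in transcripts of other genes, many of them processed pseudogenes. The annotation holds 10 pseudogenes named for ACTB and 20 for ACTG1, and none of them is listed in the files. The POTE genes, which carry an actin-like part and share windows with ACTB, were at 12 or below in every library. The muscle actins ACTC1 and ACTG2 were at 0 throughout, ACTA2 did not exceed 1 and ACTA1 did not exceed 5.

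TMSB10 (ENSG00000034510), encoding thymosin beta 10 on chromosome 2 from 84905625 to 84906675, read 2427 and 3038 under NonS shRNA, against 3805 and 3939 under APC shRNA. The conditions did not overlap, and the NonS replicates differed from each other by 0.32 on the log2 scale. The mean went from 2732.5 ± 432 (SD, n = 2) to 3872 ± 94.8 (SD, n = 2), a ratio of 1.42. The log2 difference was 0.51 (standard error 0.14, 95% interval 0.076 to 0.95, adjusted p = 0.112, limma). TMSB10 made up 42.9% and 47.5% of the members' summed value in NonS, and 53.1% and 53.5% in APC shRNA libraries.

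TMSB4X (ENSG00000205542), encoding thymosin beta 4, lies on chromosome X from 12975108 to 12977227 and had the largest difference of the 10 genes. It read 94 and 135 under NonS shRNA, against 149 and 256 under APC shRNA. The conditions did not overlap, but replicate II exceeded replicate I by 0.52 in NonS and by 0.78 in APC shRNA libraries on the log2 scale. The difference between conditions, 0.79 (standard error 0.38, 95% interval -0.38 to 1.95, adjusted p = 0.237, limma), was about as large as that between the APC shRNA replicates. It was 0.40 without APC shRNA replicate II and 1.18 without APC shRNA replicate I, and 0.53 and 1.05 without NonS replicates I and II. Of the 50-base windows of TMSB4X, 9.74% occurred in transcripts of other genes, with 6 annotated pseudogenes. The ratio of TMSB4X to TMSB10 was 0.0387 and 0.0444 under NonS and 0.0392 and 0.0650 under APC shRNA, and it overlapped between conditions.

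PFN1 (ENSG00000108518), encoding profilin 1 on chromosome 17 from 4945652 to 4949061, read 311 and 337 under NonS shRNA, against 284 and 248 under APC shRNA. Both APC shRNA values lay below both NonS values. The log2 difference was -0.29 (standard error 0.10, 95% interval -0.61 to 0.038, adjusted p = 0.170, limma). CFL1 (ENSG00000172757), encoding cofilin 1 on chromosome 11 from 65823022 to 65862026, read 370 and 358 under NonS shRNA, against 423 and 392 under APC shRNA. Here the APC shRNA values lay above the NonS values, with a log2 difference of 0.16 (standard error 0.071, 95% interval -0.058 to 0.38, adjusted p = 0.215, limma). With GC content correction the CFL1 difference was 0.076 (adjusted p = 0.652). The ratio of PFN1 to CFL1 was 0.841 and 0.941 under NonS and 0.671 and 0.633 under APC shRNA, a log2 difference of -0.45 (exact permutation p = 0.333). PFN1 shares 8.86% of its windows with the pseudogene PFN1P1. Exons of CFL1 overlap those of MUS81 by 759 bp and SNX32 by 357 bp on the opposite strand, where MUS81 was at 16 to 18 and SNX32 at 0.

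EZR (ENSG00000092820), encoding ezrin on chromosome 6 from 158765741 to 158819412, had the most negative difference of the members. It read 157 and 190 under NonS shRNA, against 107 and 115 under APC shRNA. Every APC shRNA value lay below every NonS value, and the gap between conditions was larger than that between replicates. The mean was 173.5 ± 23.3 (SD, n = 2) for NonS and 111 ± 5.66 (SD, n = 2) for APC shRNA, a ratio of 0.640. The log2 difference was -0.63 (standard error 0.13, 95% interval -1.03 to -0.24) and its adjusted p of 0.0775 in limma missed the threshold. With the values scaled to equal totals the adjusted p was 0.0367, and with a correction for GC content 0.0281, so the call of EZR depended on these settings.

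VIL1 (ENSG00000127831), encoding villin on chromosome 2 from 218419092 to 218453295, read 29 and 31 under NonS shRNA, against 39 and 35 under APC shRNA. The APC shRNA values lay above those of NonS, opposite to EZR. The log2 difference was 0.29 (standard error 0.086, 95% interval 0.027 to 0.56, adjusted p = 0.123, limma). Of its 6920 exonic bp, 3045 overlap exons of USP37 on the opposite strand, and USP37 was at 3 or below in every library. The library kit keeps strand, but the strand setting of the counting is not given in the sources used here. The ratio of EZR to VIL1 was 5.41 and 6.13 under NonS and 2.74 and 3.29 under APC shRNA, a log2 difference of -0.94 (exact permutation p = 0.333).

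ACTN4 (ENSG00000130402) and ACTN1 (ENSG00000072110) encode the non-muscle alpha-actinins. ACTN4, on chromosome 19 from 38647649 to 38731583, read 311 and 339 under NonS shRNA, against 262 in each APC shRNA replicate. Its conditions did not overlap, and the log2 difference was -0.31 (standard error 0.072, 95% interval -0.53 to -0.086, adjusted p = 0.0930, limma). With GC content correction the adjusted p was 0.0474. ACTN1, on chromosome 14 from 68874143 to 68979440, read 37 and 41 under NonS shRNA, against 45 and 50 under APC shRNA. Its values lay on the other side, with a log2 difference of 0.28 (standard error 0.096, 95% interval -0.020 to 0.58, adjusted p = 0.156, limma). The ratio of ACTN4 to ACTN1 was 8.41 and 8.27 under NonS and 5.82 and 5.24 under APC shRNA, a log2 difference of -0.59 (exact permutation p = 0.333). Of the 50-base windows of ACTN1, 9.10% occurred in transcripts of other genes, 126 of them in all. The pseudogene HMGN1P3 lies on the same strand, shares 300 exonic bp with ACTN1 and is not listed in the files. ACTN4 overlaps exons of CAPN12 by 868 bp on the opposite strand, and CAPN12 read 16 and 18 under NonS shRNA, against 11 and 13 under APC shRNA. The part of CAPN12 in the ACTN4 values was not tested.

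**Figure D2:**
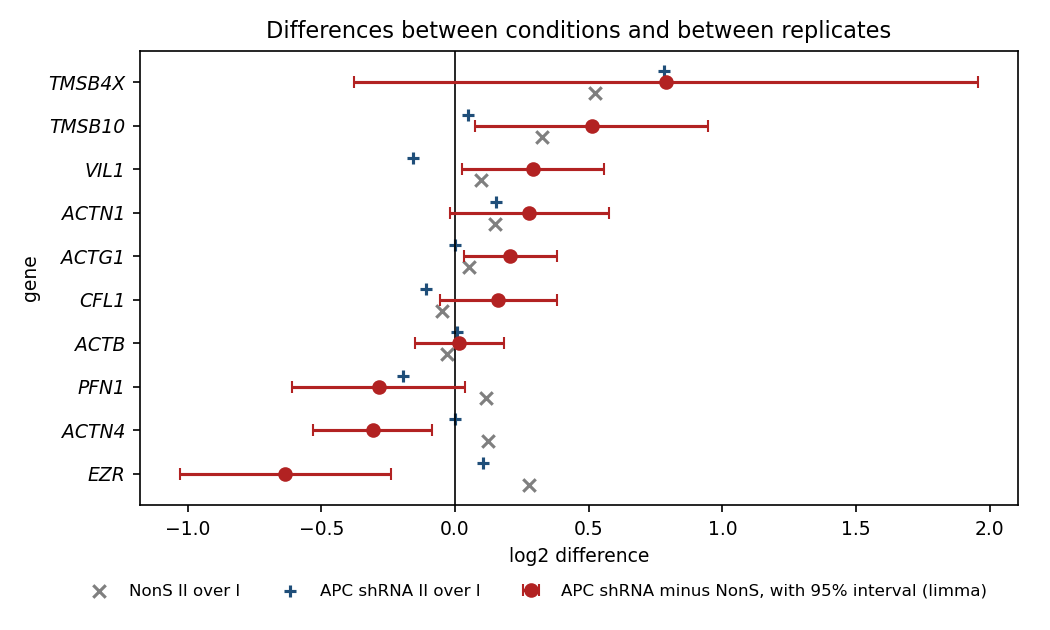
Log2(value + 1) difference of each gene, APC shRNA minus NonS, with its 95% limma interval (red), beside the log2 ratio of replicate II to I in NonS (grey crosses) and APC shRNA (blue plus signs). EZR lies lowest at -0.63, ACTB at 0.015 and TMSB4X highest at 0.79, where the replicates differ by 0.52 and 0.78.

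PFN1 and CFL1, EZR and VIL1, and ACTN4 and ACTN1 lay on opposite sides of 0. Ratios within a library, which need no scaling between libraries, did not overlap between conditions in 4 of the 5 pairs plotted. For the pairs on opposite sides of 0, neither gene overlapped between conditions, so their ratios could not overlap either. The ratios plotted were chosen with the values of the members known. None of them can pass 0.333 in an exact permutation test.

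Other actin genes were read from 9 lists by role, chosen with earlier results of these data known. In these lists 107 genes, members included, were counted once each. Of these, 69 had a mean of at least 10 and were tested, and 4 were called higher (4.33% of all genes tested were) and 1 lower (3.7% of all). The 5 calls among the 69 genes were a share near the 8.04% of all genes tested. Both APC shRNA values exceeded NonS in 20 of the 69 (33% of all). They lay below in 26, a larger share than the 27.5% of all. The median log2 difference of the 69 genes was -0.12. The 5 calls were FLNA, CNN3, ZYX and CNN2 among the higher and MSN as the lower gene. With any 1 library left out no gene in the whole fit was called, so the loss of these calls there says nothing about the 5 genes, and their adjusted p lay between 0.148 and 0.242 (limma).

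FLNA, encoding filamin A, a crosslinker that joins filaments to membrane receptors, rose from 54 and 58 in NonS to 199 and 192 in APC shRNA libraries. The ratio of means was 3.49 and the log2 difference 1.79 (standard error 0.068, adjusted p = 0.0423, limma), and it lay between 1.74 and 1.84 with each library left out. CNN3 and CNN2 encode calponins, which bind filaments. CNN3 rose from 3 and 4 to 18 and 27, a log2 difference of 2.37 (adjusted p = 0.0465), and CNN2 from 86 in both NonS libraries to 125 and 127, a log2 difference of 0.55 (adjusted p = 0.0452). ZYX, encoding the adhesion protein zyxin, rose from 37 in both NonS libraries to 67 and 58, a log2 difference of 0.74 (adjusted p = 0.0490). With each library left out the log2 difference lay between 2.09 and 2.65 for CNN3, 0.53 and 0.56 for CNN2, and 0.63 and 0.84 for ZYX. CNN3 averaged 3.5 under NonS and 22.5 under APC shRNA and passed the filter on low values only through the condition in which it was high. CNN3 and ZYX were not called when genes with a mean of at least 8, or all genes whose values summed to at least 1, were tested, and ZYX also not with at least 10 in every library, where CNN3 was not tested.

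All 4 higher genes belong to the list of SRF and MRTF targets, of which 10 of 16 were tested. Of these 10, 4, CNN3 included, were called higher and 0 lower, against 4.33% and 3.7% of all genes tested. Of the same 10, 7 lay above NonS in both APC shRNA libraries and 2 below, against 33% and 27.5% of all, and the median log2 difference was 0.27. CNN3 is among the 4, the 7 and the median, and entered the test only through the condition in which it was high. The number called was 2 with at least 10 in every library, where CNN3 was not tested. It was also 2 with a mean of at least 8, and 5 with GC content correction. The list also holds ACTB and ACTG1, which were not called. SRF itself, named after its values were seen, read 12 and 10 under NonS shRNA, against 15 and 13 under APC shRNA (adjusted p = 0.201). Against the direction of the called genes, TAGLN2, a transgelin, read 391 and 549 under NonS shRNA, against 254 and 300 under APC shRNA (log2 difference -0.75, adjusted p = 0.128), and TPM1 read 18 and 17, against 15 and 14.

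The list of ERM proteins and membrane linkers, which holds EZR, held 6 tested genes of 10. All 6, EPB41L1 included, were below NonS in both APC shRNA libraries, as were 27.5% of all genes tested. Of the 6, 1 was called lower, as were 3.7% of all. The median log2 difference of the 6 was -0.68. EPB41L1 averaged 20.0 under NonS and 9.5 under APC shRNA. It passed the filter on low values only through the condition in which it was high. The number called depended on the setting, with 6 after GC content correction, 5 with equal totals or robust moderation, 4 with upper-quartile scaling and 0 with at least 10 in every library. MSN, encoding the ezrin relative moesin, fell from 100 and 105 to 67 and 60, a log2 difference of -0.68 (standard error 0.085, adjusted p = 0.0483, limma). It lay between -0.76 and -0.61 with each library left out, and was not called with any of the 3 other filters on low values. EPB41L1, a protein that ties spectrin and actin to the membrane, was at 18 and 22 under NonS, against 9 and 10 (log2 difference -0.995, adjusted p = 0.0503), and PODXL, a sialomucin that ezrin links to actin, was at 33 and 34, against 23 and 18 (adjusted p = 0.0809). SLC9A3R2, an adaptor of the NHERF family, was at 34 and 38, against 27 and 28 (adjusted p = 0.0835). SLC9A3R1, the NHERF1 adaptor that binds ezrin, was singled out after its values were seen and read 109 and 133 under NonS shRNA, against 75 and 76 under APC shRNA (adjusted p = 0.0709). Among the 4 genes too low to test, also singled out afterwards, PDZK1 read 6 in each NonS replicate, against 10 and 11 under APC shRNA, and EPB41L2 was at 5 and 4, against 10 and 6, whereas RDX, the ERM protein radixin, was at 5 and 2, against 2 and 1, and NF2 at 9 and 8, against 10 and 9.

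None of the genes was called in the other 7 lists, apart from FLNA, which also stands among the crosslinkers. In the Arp2/3 complex, which nucleates branched filaments, all 9 subunits were tested and their log2 differences ran from -0.43 for ACTR2 (55 and 41 in NonS, 41 and 30 in APC shRNA libraries) and -0.35 for ACTR3 to 0.23 for ARPC4 and for ARPC5. Among 12 tested genes of monomer binding and turnover the 2 thymosins were highest, and CORO1C (coronin, 31 and 30 against 23 and 24) and TWF1 (twinfilin) were lowest. TWF1 was at 32 in NonS I and at 8, 7 and 7 in the other libraries, so its difference rested on 1 library. Among the capping proteins, gelsolin GSN read 21 and 31 under NonS shRNA, against 40 and 49 under APC shRNA (adjusted p = 0.141) and ADD1 had a log2 difference of 0.23, whereas ADD3 and CAPZA2 had differences of -0.88 and -0.78. ADD3 read 35 and 24, against 23 and 10, and its difference was -0.32 without APC shRNA replicate II. CAPZA2 read 23 and 10, against 9 and 8, and its difference was -0.21 without NonS replicate I. TWF1 and CAPZA2 averaged 7.0 and 8.5 under APC shRNA, and passed the filter on low values only through NonS.

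Of the 15 brush border and bundling genes only 5 were tested. VIL1 was the highest of them, followed by USH1C at -0.013, and BAIAP2L1, which shapes membrane protrusions, read 39 and 46 under NonS shRNA, against 24 and 27 under APC shRNA (adjusted p = 0.0656). PLS3 had a difference of -0.40. Of the 10 too low to test, and named for that, LCP1 and CDHR2 were at 0 in every library, and MYO1A and ESPN did not exceed 1. Among crosslinkers and spectrins, SPTBN1 read 26 and 27 under NonS and 20 in each APC shRNA replicate (adjusted p = 0.0501). Among tropomyosins and myosin II, MYH9, a non-muscle myosin heavy chain, was at 116 and 128, against 164 and 168 (log2 difference 0.44, adjusted p = 0.0669), MYL6 had a difference of 0.36, and TPM2 and TPM3 of -0.43 and -0.31. The nucleators and elongators ran from -0.24 for DIAPH1 and -0.15 for CTTN to 0.098 for WASF2 and 0.12 for VASP. The differences of ARPC5, PLS3, USH1C and WASF2 changed sign with 1 library left out.

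The genes most like ACTB in pattern, by the root mean square distance of log2(value + 1) centred on each gene's own mean over the 4 libraries, were SF1 (0.0171), BUD23 (0.0177) and NAXE (0.0193), out of 1183 other genes with a symbol and a mean of at least 50. SF1 read 84 and 81 under NonS shRNA, against 81 and 83 under APC shRNA. Among the 3 nearest to TMSB4X were CRABP2 (0.137) and CTDSP2 (0.144). CRABP2 read 239 and 353 under NonS shRNA, against 481 and 679 under APC shRNA, with replicate II above replicate I in both conditions, as in TMSB4X. A likeness over 4 libraries describes these libraries only.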

How the data were processed

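mRNA libraries of HT-29 cells (2 per condition) were grouped by the sample titles. Per the study's methods, the authors quality-filtered 50 bp single reads, trimmed polyA tails, mapped them with TopHat2 to human assembly 38 and counted genes with htseq-count on GENCODE v29, whereas the submitters' processing notes name hg19. Each library file that the authors deposited gives whole numbers by gene, treated here as a score of unstated scale and not as a count: low genes varied between replicates by only 0.474 (NonS) and 0.345 (APC shRNA) times the Poisson variance. The number of reads behind a value, and so its counting error, is unknown. The authors' table of mean values, fold changes and adjusted p-values was not used.

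Log2(value + 1) was fitted with limma 3.58.1 in R 4.3.3 (lmFit, eBayes with a mean-variance trend, no further scaling, mean of at least 10, Benjamini-Hochberg adjustment over 5376 genes). The prior degrees of freedom were 1.14. Per the labels, the experiment was run again to give the duplicates, and whether I and II mark those runs is not stated. The members and the gene lists were chosen with earlier results of these data known. Genes named are all members, the calls, and from each list the pair with the most positive and the pair with the most negative difference, with the 3 nearest patterns to ACTB and to the member with the largest difference. Some genes that this rule names are not reported here. Gene positions, exon overlaps, lengths and GC content were taken from GENCODE v29 and promoters from RefSeq (GRCh38.p14). Alternatives covered scaling, pseudocount, filters, replicate block, GC content (loess with a span of 0.5), moderation, thresholds and each library left out. Tables and figures were made with Python 3.11.15, pandas 2.3.3 and matplotlib 3.10.9.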

Additional observations from a re-analysis of the deposited data

How the results depend on the processing

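Depth is unknown and low values are limited by rounding. The smallest adjusted p of any gene in the main fit was 0.0423 (limma), above the 0.01 of the stricter rule. Of 170 refits of the 10 member differences, 154 kept their direction and side of the threshold, 11 became calls and 5 changed sign, all for ACTB: -0.015 with equal totals, -0.00031 with upper-quartile scaling, -0.069 with GC content correction with or without the replicate block, and -4.9e-06 without NonS replicate II (range -4.9e-06 to 0.030 over single libraries left out). Among members, 1 was called with equal totals, 1 with upper-quartile scaling and 1 with robust moderation, 2 with GC content correction and 6 with GC content correction and the replicate block (EZR, ACTN4, TMSB4X with an adjusted p of 0.00753, PFN1, VIL1 and ACTN1). Among all genes, in place of 432 calls (233 higher, 199 lower), there were 712 (369 lower) with equal totals, 305 lower with median-of-ratios scaling, 1467 (952 higher, 515 lower) with a total of at least 1, 273 (139 higher) with at least 10 in every library, 902 (442 higher, 460 lower) with GC content correction, 720 (368 higher, 352 lower) with robust moderation and 2474 (1219 higher, 1255 lower) with GC content correction in a fit with the replicate block. In the actin lists, in place of 5 calls, there were 11 with equal totals, 9 with upper-quartile scaling, 3 with a mean of at least 8, 10 with a total of at least 1, 2 with at least 10 in every library, 14 with GC content correction, 36 with the block and GC content correction and 11 with robust moderation. With any 1 library left out, where the lone library of an arm is assumed to vary like the other condition, or with more than 4-fold at an adjusted p under 0.01, counts were 0 for all genes (either direction) and for the lists, and 1119 to 1330 genes had an unadjusted p under 0.05 without 1 library (limma). The replicate block alone gave 1023 calls (523 higher, 500 lower), 9 in the actin lists and 0 among members, and MSN was no longer called (adjusted p = 0.0554, limma). The labels do not say that a shared number marks a shared batch. Deviations of replicate II from I correlated between conditions at 0.724 across genes, which are not independent replicates. What caused these shifts was not tested.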
